A study of Mus musculus with 118 samples.

Results

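The potassium channel genes examined here were the 94 protein-coding mouse genes whose symbols begin with Kcn, of 21000 protein-coding genes with a curated RefSeq transcript. They were defined by symbol alone, and no measured value entered that rule. Earlier results of these data were known when the group was chosen. For each gene, every curated transcription start site (TSS) plus or minus 2500 bp was taken as a promoter, and peaks of RING1B, SUZ12 and PCGF2 sharing at least 1 bp with it were recorded with their widths. Of the 94 genes, 77 encode pore-forming subunits and 17 encode auxiliary subunits or regulators, so the symbol covers more than the channels themselves.

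Potassium channels let potassium leave or enter the cell, and so set the resting membrane potential and shape the action potentials of neurons and muscle. Most of these genes are known for their use in differentiated excitable, secretory or epithelial cells. The Polycomb system consists of PRC1, an E3 ligase built on RING1A or RING1B that ubiquitylates histone H2A, and PRC2, a methyltransferase of histone H3 that contains SUZ12. In embryonic stem cells (ESCs) both sit at promoters of developmental genes, mostly at CpG islands. PCGF2 is a subunit of canonical PRC1, the form that recognises the histone mark left by PRC2.

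The study profiled chromatin proteins by calibrated ChIP-seq in E14 mouse ESCs before and after loss of PRC1 or of its catalytic activity, in 118 samples of 42 groups. Only peak lists from untreated cells were analysed here, so nothing below measures an effect of treatment. The PRC1CPM line, clone 41, carries Ring1a with I50A and D53K, a floxed Ring1b cassette that Cre switches from wild type to I53A and D56K, and ERT2-Cre at Rosa26. The PRC1CKO line, clone B9, is Ring1a-/-, Ring1b fl/fl and carries the same ERT2-Cre. Thus in untreated cells of both lines RING1B was wild type and RING1A was already mutated or absent, and each line was 1 clone. The labels give 3 untreated PRC1CPM samples for each of the 3 antibodies, with 3 more of PRC1CKO for SUZ12. Both lines fed the RING1B and SUZ12 lists, while PRC1CPM alone fed the PCGF2 list.

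The RING1B list held 18643 peaks, the SUZ12 list 7438 and the PCGF2 list 3680, with median widths of 1495, 2665.5 and 2588.5 bp. Each list is 1 set of positions without heights or replicate values. Counts and widths below therefore carry no error between replicates, and the read depth behind a peak is not given by the lists. A promoter without a peak is one at which the authors' rules kept none, which does not show that the protein was absent.

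Most Kcn genes had Polycomb peaks at a promoter. RING1B lay at 75 of the 94 genes (79.8%), against 58.4% of all protein-coding genes. SUZ12 lay at 70 (74.5%), against 27.2% of all genes. PCGF2 lay at 55 (58.5%), against 14.5%. The excess over the background was thus larger for SUZ12 and PCGF2 than for RING1B. The peaks were nested: every Kcn gene with PCGF2 also had SUZ12, and every one with SUZ12 also had RING1B. Such nesting was near general in these lists, since only 0.362% of all protein-coding genes had a combination of peaks that broke it.

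The Kcn genes therefore fell into 4 classes. All 3 peaks were present at 55 genes (58.5%), against 14.5% of all genes. RING1B with SUZ12 but without PCGF2 was found at 15 genes (16.0%), against 12.4%. RING1B alone was found at 5 genes (5.32%), against 31.5%, and no peak at 19 genes (20.2%), against 41.3%. RING1B without SUZ12 was thus common across the genome and rare among Kcn genes. No test across genes was run, so these shares describe the lists.

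**Figure D1:**
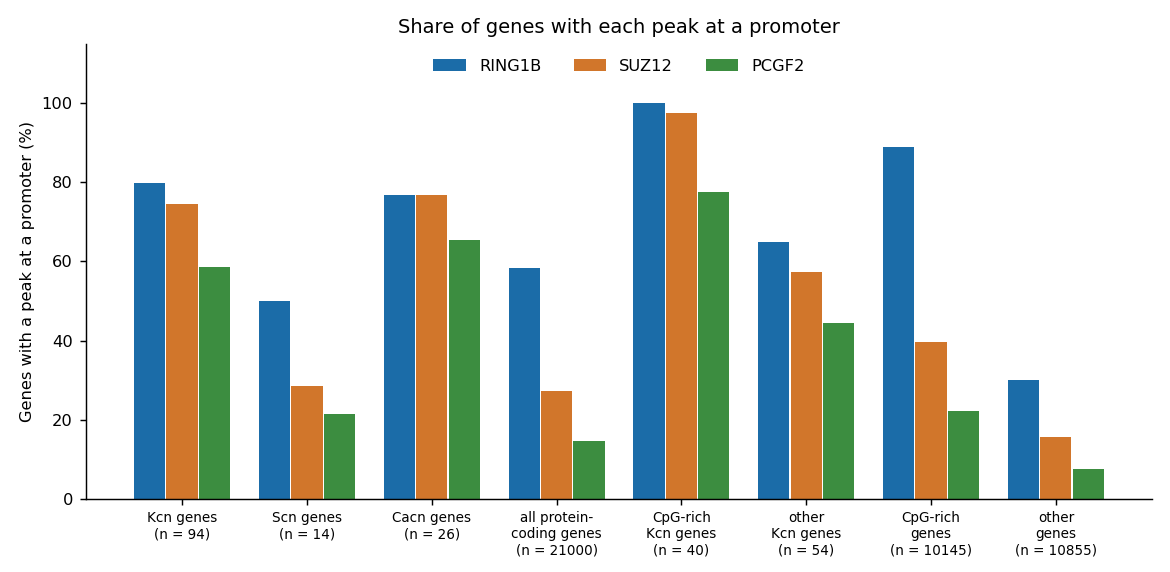
Percent of genes with a RING1B, SUZ12 or PCGF2 peak at a promoter, for Kcn genes, the sodium (Scn) and calcium (Cacn) channel genes, all protein-coding genes, and Kcn and all genes divided by promoter CpG content (n under each group). Kcn genes reached 79.8%, 74.5% and 58.5% for the 3 lists, and all protein-coding genes 58.4%, 27.2% and 14.5%.

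To show what such promoters look like, 1 promoter of each class is printed, from 250 bases before the TSS to 50 after it (RefSeq sequences, GRCm38.p6, 5′ to 3′ on the gene's strand). Capitals mark CpG dinucleotides, the feature in which the classes differed below. In each class the gene with the widest RING1B peak was taken or, without a peak, the gene with the highest CpG content. A gene whose promoter at that peak was not in the sequence table was passed over for the next. Kcnn1, with all 3 peaks, has its promoter at chr8:70863209-70863508 (minus strand) with 13 CpGs. Kcnh4, with RING1B and SUZ12, has it at chr11:100759729-100760028 (minus strand) with 23. Kcnip2, with RING1B only, has it at chr19:45816014-45816313 (minus strand) with 18. Kcnmb2, without a peak, has it at chr3:31902453-31902752 (plus strand) with 9. The median over the 32851 promoter sequences of the table was 7 CpGs. In these 300 bases the promoter with all 3 peaks held fewer CpGs than those of Kcnh4 and Kcnip2. The Kcnip2 sequence lies at a TSS held by a narrower RING1B peak. It shares no base with the widest RING1B peak of Kcnip2, at chr19:45817132-45818763, by which the gene was chosen. Its CpG count therefore does not describe that peak.
Kcnn1: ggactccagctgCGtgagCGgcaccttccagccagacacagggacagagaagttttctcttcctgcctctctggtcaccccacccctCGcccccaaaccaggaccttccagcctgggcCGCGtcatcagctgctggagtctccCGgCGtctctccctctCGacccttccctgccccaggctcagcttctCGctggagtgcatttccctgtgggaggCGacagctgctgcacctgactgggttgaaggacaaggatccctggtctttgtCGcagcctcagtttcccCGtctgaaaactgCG
Kcnh4: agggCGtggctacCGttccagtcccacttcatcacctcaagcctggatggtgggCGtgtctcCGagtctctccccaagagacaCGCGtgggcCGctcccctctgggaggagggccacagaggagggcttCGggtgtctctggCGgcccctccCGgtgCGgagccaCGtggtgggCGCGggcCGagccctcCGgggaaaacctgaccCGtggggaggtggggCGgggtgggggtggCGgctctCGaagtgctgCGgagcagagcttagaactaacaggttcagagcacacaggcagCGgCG
Kcnip2: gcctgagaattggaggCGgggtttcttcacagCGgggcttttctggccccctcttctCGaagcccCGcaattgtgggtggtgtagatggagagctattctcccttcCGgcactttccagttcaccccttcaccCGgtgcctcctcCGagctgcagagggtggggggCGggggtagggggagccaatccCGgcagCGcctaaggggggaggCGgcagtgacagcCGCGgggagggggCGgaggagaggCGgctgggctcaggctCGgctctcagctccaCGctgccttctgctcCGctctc
Kcnmb2: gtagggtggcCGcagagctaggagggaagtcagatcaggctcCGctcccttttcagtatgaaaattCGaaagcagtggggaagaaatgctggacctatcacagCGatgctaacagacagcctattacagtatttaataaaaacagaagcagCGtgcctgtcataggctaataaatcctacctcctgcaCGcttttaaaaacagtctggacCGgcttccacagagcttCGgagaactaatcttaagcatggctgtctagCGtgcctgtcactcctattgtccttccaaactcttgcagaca

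Voltage-gated channels, which open on depolarisation, were the family with the highest shares. RING1B lay at 38 of 40 genes (95%), SUZ12 at 36 (90%) and PCGF2 at 30 (75%). The 30 genes with all 3 peaks included Kcna1, Kcna2, Kcna3, Kcna4, Kcna5, Kcna6, Kcna7, Kcnb2, Kcnc1, Kcnc2, Kcnc4, Kcnd2, Kcnd3, Kcnf1, Kcng1, Kcng2, Kcng3, Kcnh1, Kcnh3, Kcnh5, Kcnh7, Kcnq1, Kcnq3, Kcnq5, Kcns1, Kcns3 and Kcnv1. The 6 genes with RING1B and SUZ12 but without PCGF2 included Kcng4, Kcnh2, Kcnh4, Kcnh8 and Kcns2. RING1B alone marked Kcnh6 and Kcnv2, and Kcna10 and Kcnd1 had no peak.

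Within this family 7 of the 8 Kcna genes (Shaker type) had all 3 peaks. The Kcnh genes (ether-a-go-go type) were mixed, with 4 of 8 holding all 3 peaks, 3 RING1B and SUZ12, and 1 RING1B alone. The electrically silent subunits, which form channels only with other subunits and are encoded by Kcnf, Kcng, Kcns and Kcnv genes, mostly had all 3 peaks as well, with Kcng4, Kcns2 and Kcnv2 as the exceptions.

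Some of the widest peaks lay at voltage-gated genes. Kcnh3, of the ether-a-go-go-like group, had a RING1B peak of 7912 bp at chr15:99221218-99229129, a SUZ12 peak of 9185 bp and a PCGF2 peak of 4596 bp. Kcna1, a delayed rectifier of axons, had peaks of 7366 bp at chr6:126640993-126648358, 10207 bp and 6427 bp, in the same order. At both genes SUZ12 spanned more than RING1B, and PCGF2 less. The SUZ12 and PCGF2 peaks of Kcna1 were the widest of any Kcn gene in their lists.

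Wide RING1B peaks also occurred without a PCGF2 peak. Kcnh2, which encodes the channel of the rapid cardiac delayed rectifier current, had a RING1B peak of 5731 bp at chr5:24347503-24353233 and a SUZ12 peak of 4495 bp. Kcnh4 had 3443 bp and 3746 bp, and the silent subunit gene Kcng4 had 3332 bp and 4098 bp. The RING1B peak of Kcnh2 was wider than the median of 4951 bp among the genes with all 3 peaks. At the other end, the RING1B peak of Kcnh6 measured 341 bp, the narrowest of any member and at percentile 2.16 of the RING1B list.

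Tandem pore domain channels, the Kcnk genes that carry background leak currents, divided more sharply. Of 14 genes, 10 (71.4%) had all 3 peaks: Kcnk1, Kcnk2, Kcnk3, Kcnk4, Kcnk6, Kcnk9, Kcnk10, Kcnk12, Kcnk13 and Kcnk15. Kcnk5, an acid-sensitive channel of epithelia, had RING1B alone, and Kcnk7, Kcnk16 and Kcnk18 had no peak. No gene of this family had RING1B and SUZ12 without PCGF2. Kcnk12, a halothane-inhibited type, had peaks of 7534 bp (RING1B, chr17:87793092-87800625), 7734 bp (SUZ12) and 5384 bp (PCGF2). Kcnk10, a mechanosensitive type, had 7501 bp (RING1B, chr12:98572075-98579575), 9342 bp (SUZ12) and 6081 bp (PCGF2). The family's median RING1B width of 5055 bp over 11 genes was the largest of the 5 families.

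Inward rectifiers, the Kcnj genes, pass current more readily into the cell than out of it. All 3 peaks lay at 7 of 15 genes (46.7%), namely Kcnj2, Kcnj3, Kcnj4, Kcnj5, Kcnj8, Kcnj9 and Kcnj12. RING1B and SUZ12 lay at Kcnj6, Kcnj10 and Kcnj11. Kcnj1, Kcnj13, Kcnj14, Kcnj15 and Kcnj16 had no peak. Of the G protein-gated members, Kcnj3, Kcnj5 and Kcnj9 had all 3 peaks, with RING1B widths of 3271, 3359 and 4892 bp, and Kcnj6 lacked PCGF2, with a RING1B width of 2561 bp. The pore subunits of ATP-sensitive channels also differed, since Kcnj8 had all 3 peaks and Kcnj11 lacked PCGF2. Kcnj1 and Kcnj16, known from the renal tubule, and Kcnj13, known from epithelia, were among those without peaks. Kcnk5, also a channel of epithelia, had RING1B, and a link between tissue of use and class was not tested.

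Most ion-activated channels open on internal calcium or sodium. Kcnma1, the large-conductance calcium-activated channel, had all 3 peaks, as did Kcnn1 and Kcnn2, of the small-conductance type. Kcnn3, of the same type, and the sodium-activated Kcnt1 had RING1B and SUZ12. Kcnt2, also sodium-activated, had RING1B alone, and Kcnn4, the intermediate-conductance type, and Kcnu1, a channel of sperm, had no peak. Kcnn1 held the widest RING1B peak of all members, 9107 bp at chr8:70860915-70870021, with SUZ12 and PCGF2 peaks of 3983 and 3851 bp. It was the only 1 of the 6 widest RING1B peaks at which SUZ12 was narrower than RING1B. The peak reached 6763 bp upstream of the TSS and 2343 bp downstream.

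Auxiliary subunits and regulators had the lowest shares. RING1B lay at 10 of 17 genes (58.8%), SUZ12 at 9 (52.9%) and PCGF2 at 5 (29.4%). All 3 peaks marked Kcnab3, Kcnip1, Kcnip3, Kcnip4 and Kcnmb4. RING1B and SUZ12 marked Kcnab1, Kcnab2, Kcne1l and Kcne3, and RING1B alone marked Kcnip2. No peak was found at Kcne1, Kcne2, Kcne4, Kcnmb1, Kcnmb2, Kcnmb3 and Kcnrg. The calcium-binding Kcnip proteins, which modulate Shal-type channels, had RING1B at all 4 genes. By contrast, 3 of the 4 Kcnmb genes, for beta subunits of the calcium-activated channel, and 3 of the 5 Kcne genes, for single-span modulators, had no peak. The share with no peak was 41.2% here and 5.00% among voltage-gated genes, beside 41.3% of all protein-coding genes.

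**Figure D2:**
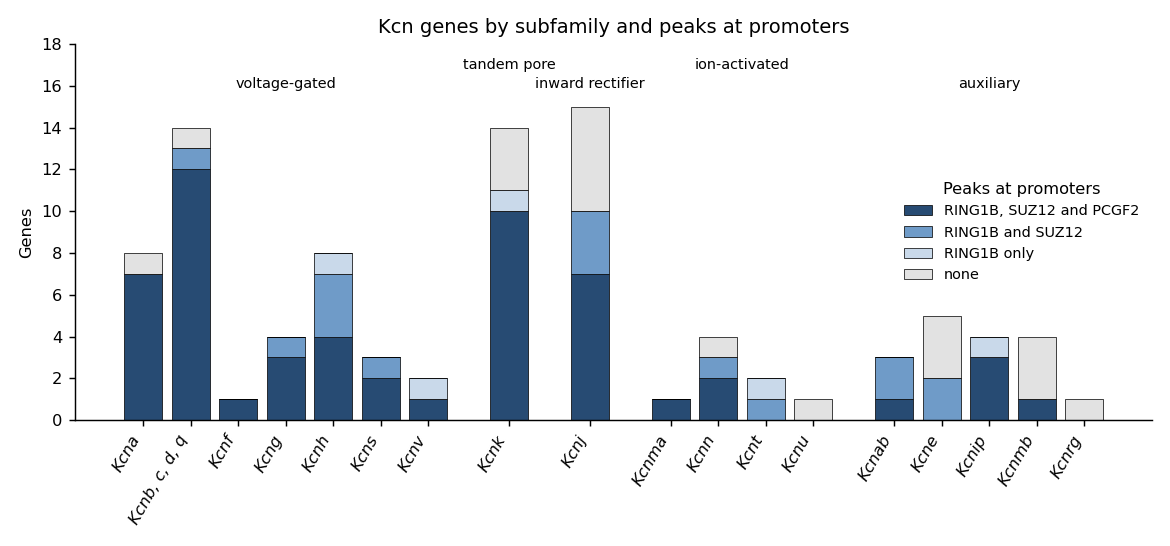
Number of Kcn genes in each subfamily or group of subfamilies (horizontal axis, grouped by family) by the peaks at their promoters, as stacked bars. Among Kcna genes 7 of 8 and among Kcnk genes 10 of 14 had all 3 peaks, whereas 5 of 15 Kcnj, 3 of 5 Kcne and 3 of 4 Kcnmb genes had none.

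Peaks at Kcn promoters were wide for the RING1B list. Among members with a RING1B peak, the widest at each gene had a median of 3941 bp, against 1780 bp for all genes with one. Within a class the difference in RING1B width was smaller. In the all 3 class the median was 4951 bp for Kcn genes and 4778 bp for all genes of that class, with interquartile ranges of 3465 to 6306.5 bp and 3339 to 7179 bp. SUZ12 widths in that class had medians of 5301 and 5260 bp, and PCGF2 widths 2919 and 2818 bp. Kcn genes with all 3 peaks were thus close in median width to all such genes. In the class with RING1B and SUZ12 the medians lay further apart, at 2502 bp for 15 Kcn genes and 1989 bp for all 2612 genes of that class for RING1B, and at 2528 and 1527.5 bp for SUZ12.

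RING1B widths fell from class to class in medians, and overlapped in range. They ran from 1793 to 9107 bp with a median of 4951 bp at the 55 genes with all 3 peaks. At the 15 genes with RING1B and SUZ12 the median was 2502 bp, with an interquartile range of 1767 to 3221.5 bp. At the 5 genes with RING1B alone they ran from 341 to 1632 bp with a median of 1184 bp. Each RING1B-only width thus lay below the narrowest all 3 width, that of Kcnip1. All genes showed the same order, with medians of 4778, 1989 and 1214 bp. Among the 55 genes, 34 had a RING1B peak of at least 4 kb and 29 had one at or above percentile 90 of the RING1B list. These counts were not made over all genes with all 3 peaks. The median of those genes, 4778 bp, also lay above 4 kb, so such widths were common to the class.

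**Figure D3:**
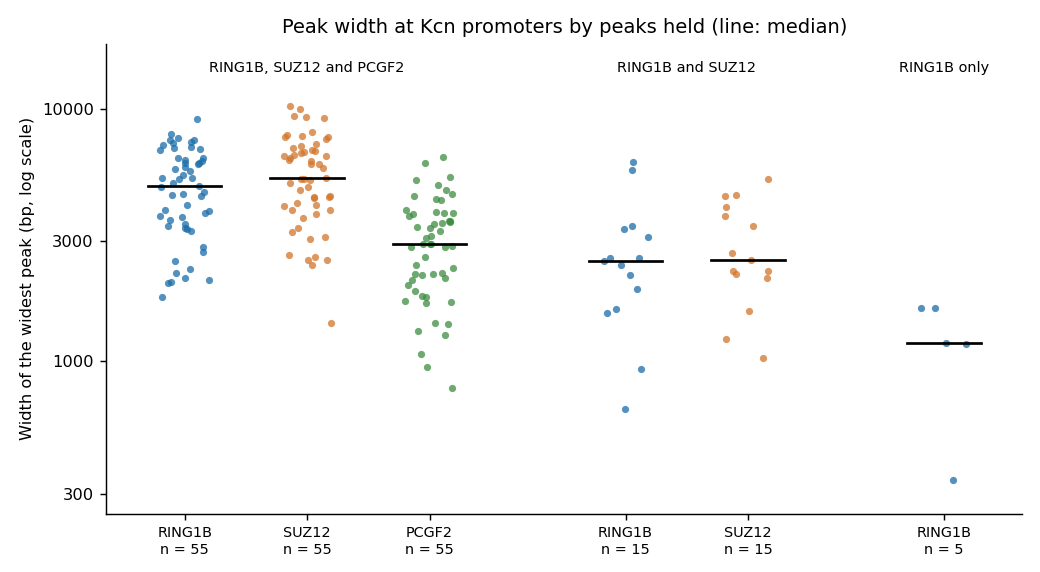
Width of the widest peak of each list at each Kcn gene (points, log scale in bp) by the peaks its promoters held, with the median as a line. RING1B medians were 4951 bp with all 3 peaks, 2502 bp with RING1B and SUZ12 and 1184 bp with RING1B alone.

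The peaks of the 3 lists lay on top of one another. RING1B and SUZ12 peaks overlapped at all 70 genes that had both. In the all 3 class SUZ12 was wider than RING1B at 46 of 55 genes, and PCGF2 was the narrowest at 52. Because the calling rules differed from list to list, the order of widths between lists cannot be told apart from those rules. In the same class Kcnip1, for a Kcnip protein, departed most in proportion, with a RING1B peak of 1793 bp and a SUZ12 peak of 6014 bp.

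Most peaks held a TSS of the member itself. This was so for RING1B at 72 of 75 genes, for SUZ12 at 65 of 70 and for PCGF2 at 50 of 55. The RING1B exceptions began 82 bp (Kcnab1), 261 bp (Kcnv2) and 875 bp (Kcng4) from the nearest TSS. Of the nearest peaks at each gene, the farthest that counted was the PCGF2 peak of Kcnj9, a G protein-gated inward rectifier, at 2255 bp. The nearest RING1B peak that did not count lay 4352 bp from the TSS of Kcnj14. Among the nearest promoter peaks only that of Kcnj9 thus lay more than 1000 bp from a TSS. Where a gene had several peaks the widest could lie farther than that, as the RING1B peak of Kcnip2 did.

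RING1B peaks extended mainly into the gene. In the all 3 class they reached a median of 1892 bp upstream and 2772 bp downstream of the TSS, and further downstream at 42 of 55 genes. A median of 71.5% of the peak lay inside the gene. Among all 3035 genes with all 3 peaks, RING1B reached further downstream at 73.2%, so this direction was common to genes of that class. The peak of Kcns1, for a silent subunit, reached furthest downstream, with 6522 bp there and 669 bp upstream. A TSS of another protein-coding gene lay in the RING1B peak at 1 of the 55 genes, Kcnab3, and at 10.6% of all genes with all 3 peaks. Its peak held the starts of Cntrob and Trappc1. The RING1B peak of Kcnab2 held that of Nphp4, so these peaks cannot be assigned to 1 gene.

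**Figure D4:**
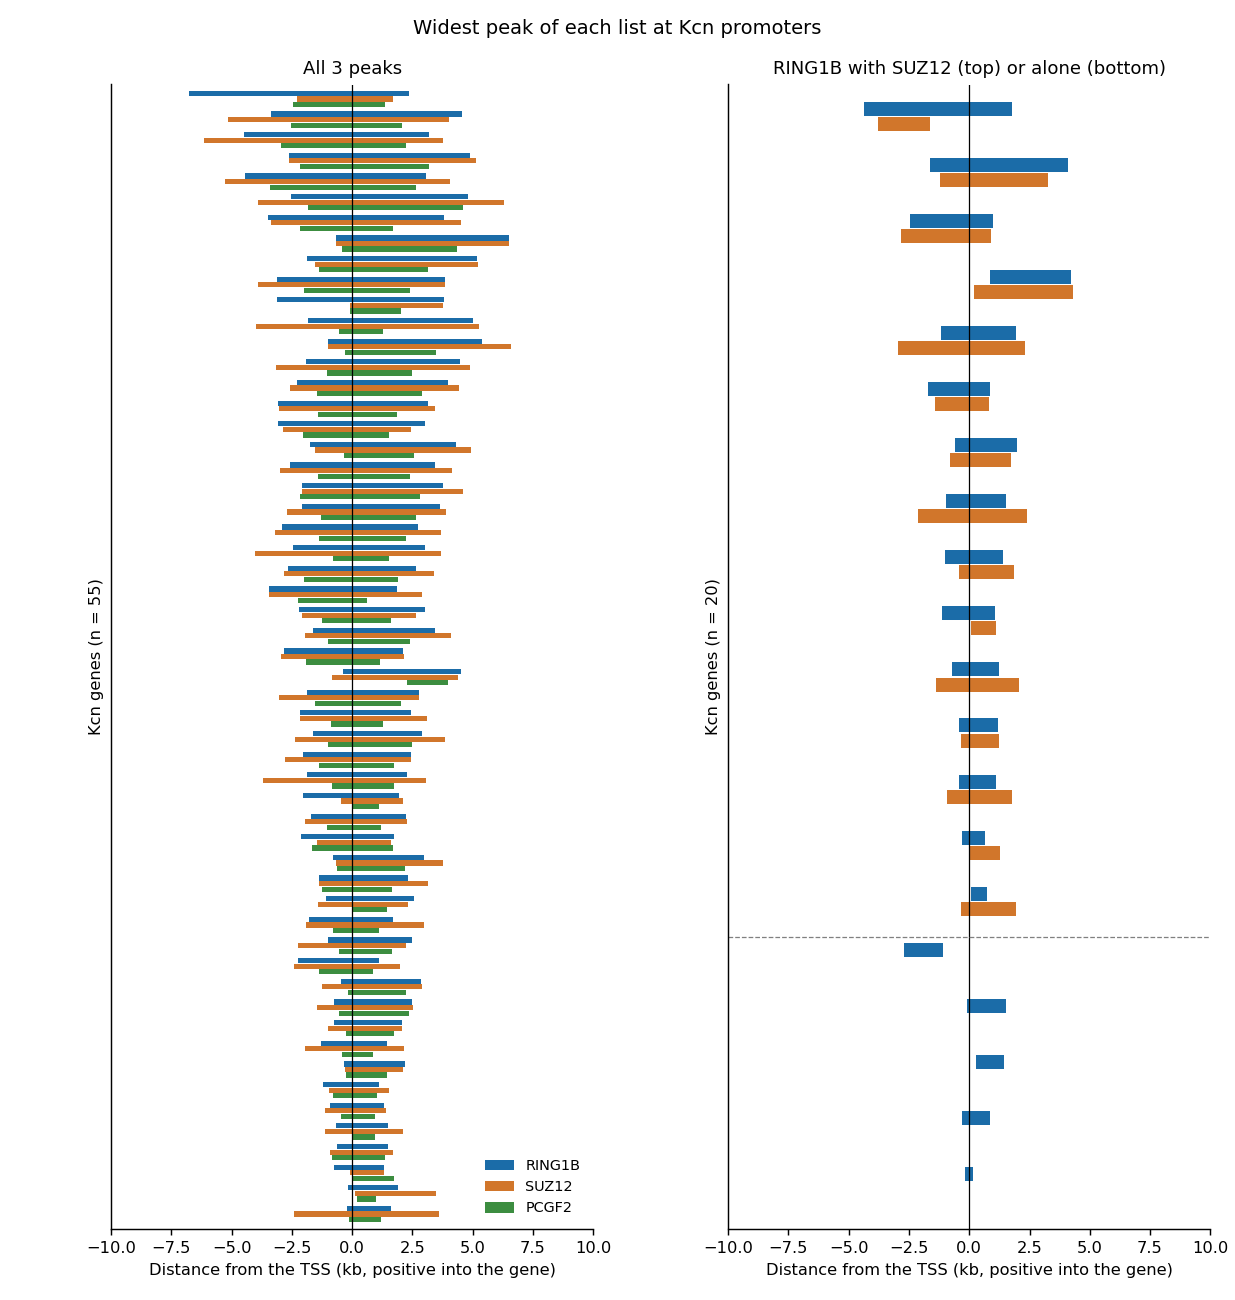
Extent of the widest RING1B, SUZ12 and PCGF2 peak at each Kcn gene with a RING1B peak, as distance in kb from the TSS nearest the RING1B peak's middle (positive values run into the gene), with 1 unlabelled line of bars a gene, ordered by RING1B width within each class. RING1B reached further downstream than upstream at 42 of the 55 genes with all 3 peaks, beside 73.2% of all protein-coding genes with all 3. SUZ12 was wider than RING1B at 46 of the 55.

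Promoter CpG content separated genes with and without peaks. It was measured as CpG observed/expected in the TSS plus or minus 500 bp of the transcript with the longest coding sequence. The median was 0.648 over the 70 genes with SUZ12 and 0.269 over the 24 without, a difference of 0.379. By class it was 0.695 with all 3 peaks, 0.614 with RING1B and SUZ12, 0.432 with RING1B alone and 0.227 with none. The corresponding medians over all genes were 0.727, 0.716, 0.753 and 0.218. The 5 Kcn genes with RING1B alone were therefore lower in CpG than most genes of that class, and Kcnk5, at 0.669, was the only 1 of them counted as CpG-rich. All 19 genes without a peak lay under 0.5.

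A promoter was counted as CpG-rich at a ratio of at least 0.6 and a GC content of at least 50%. By this measure 40 of 94 Kcn genes (42.6%) and 48.3% of all genes were CpG-rich, so CpG-rich promoters were not more frequent among Kcn genes. All 40 CpG-rich Kcn genes had RING1B, against 88.9% of the 10145 CpG-rich genes. SUZ12 lay at 39 (97.5%), against 39.5%. PCGF2 lay at 31 (77.5%), against 22.1%, and all 3 peaks also at 31, against 22%. The 54 other Kcn genes had RING1B at 35 (64.8%), SUZ12 at 31 (57.4%) and PCGF2 at 24 (44.4%), where the other protein-coding genes had 29.9%, 15.7% and 7.43%. Kcn genes exceeded the background at both kinds of promoter, but the division did not match them in CpG content. The median ratio was 0.407 for the other Kcn genes and 0.254 for the other protein-coding genes. Among CpG-rich promoters it was 0.765 and 0.787. The part of this difference in the shares was not tested.

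**Figure D5:**
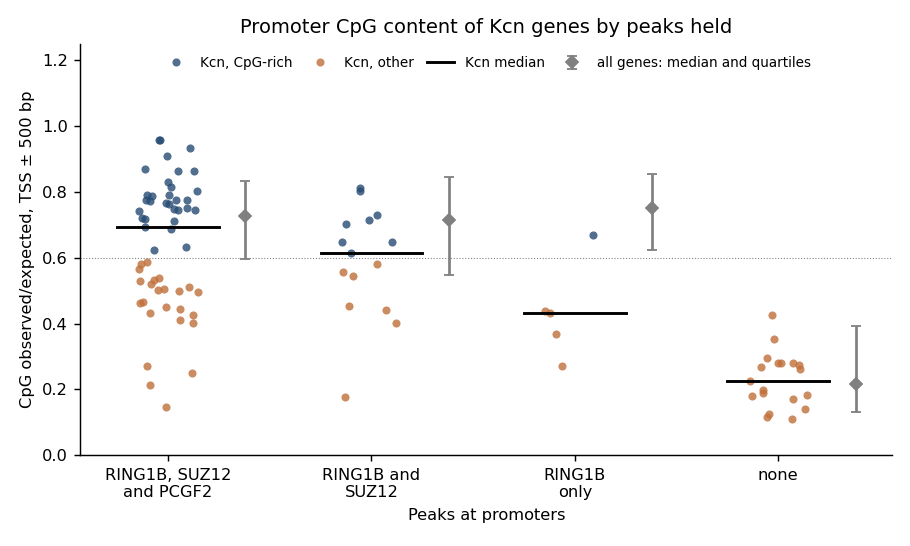
CpG observed/expected in the TSS plus or minus 500 bp for each Kcn gene (points, coloured by whether the promoter is CpG-rich) by the peaks at its promoters, with the Kcn median as a line and the median and quartiles of all protein-coding genes as a grey diamond with bars. The Kcn medians were 0.695, 0.614, 0.432 and 0.227 from left to right, and those of all genes 0.727, 0.716, 0.753 and 0.218.

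In some genes with all 3 peaks, the TSS at which the ratio was measured was not the one at the peaks. Kcnj12, a strong inward rectifier, had 0.148 at the TSS of its longest coding sequence and 0.922 at the promoter that held the peaks, and Kcnip3 had 0.215 and 0.669. Other genes had a single TSS of low CpG content inside or beside wide peaks. Kcna5, a Shaker-type delayed rectifier, had 0.250 with a RING1B peak of 2505 bp, and Kcnj9 had 0.272 with 4892 bp. Kcng4 had 0.177, and both its peaks began downstream of the TSS.

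Across the peaks themselves the CpG ratio was more even. Over the whole widest RING1B peak it ranged from 0.241 to 0.712 among the 75 genes, with a median of 0.465, against 0.632 for all 11556 RING1B peaks at promoters. The latter value takes every peak and not the widest of each gene, and was not matched by class or width. By class the Kcn median was 0.463 with all 3 peaks, 0.484 with RING1B and SUZ12 and 0.574 with RING1B alone. The ratio was lower in the peak than at the TSS nearest the peak's middle at 63 genes and higher at 12. In Kcnma1 it was 0.909 at the TSS and 0.501 over the peak of 6229 bp.

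Promoters far apart in 1 gene often differed in class. Of 25 members with several TSSs, 14 had promoters at least 5 kb apart, and in 11 of these the promoters differed in class. The same count over all protein-coding genes was not made. Kcnip4 had all 3 peaks at the first of its 4 promoters, with widths of 2141, 3240 and 953 bp, and none at the other 3. Kcnip1 had all 3 at the second of 3 promoters, with a CpG ratio of 0.578 there and of 0.295 and 0.463 at the others. Kcnk2, a mechanosensitive leak channel, had all 3 at its downstream promoter (0.815) and none at the upstream one, although the latter had a ratio of 0.624. In the beta subunit genes, Kcnab1 had RING1B and SUZ12 at the second of 3 promoters, where the ratio was 0.263, and Kcnab2 at the first of 2, at 0.731. Kcnh2 had RING1B and SUZ12 at its first promoter (0.812), while its second (0.293) held only a SUZ12 peak of 401 bp. In 3 of these 6 genes the promoter with RING1B was the first, and in 5 it had the highest CpG ratio, Kcnab1 being the exception. Kcnip3, Kcnj6, Kcnj12, Kcnn1 and Kcnn2 also had promoters that differed in class, and in Kcnip3, Kcnn1 and Kcnn2 each promoter held a peak.

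Linked Kcn genes could differ in class over short distances. No peak was shared between Kcn genes. Kcnj9 (all 3) and Kcnj10 (RING1B and SUZ12), the latter a glial inward rectifier, lay 11.9 kb apart. Kcnj5, with all 3 peaks, lay 28 kb from Kcnj1, which had none, and Kcnj2, with all 3, lay 38.2 kb from Kcnj16, which had none. In the Shaker cluster of chromosome 3, Kcna3 and Kcna2 both had all 3 peaks 52.8 kb apart, and Kcna10 had none 68.1 kb from Kcna2. In the cluster of chromosome 6, Kcna5, Kcna1 and Kcna6 all had all 3. Kcnmb1, without a peak, overlaps Kcnip1, which had all 3.

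The genes without a peak varied in their distance from RING1B. The distance from the main TSS to the nearest one ran from 4352 bp (Kcnj14) to 438632 bp (Kcnmb2). The highest CpG ratios in this class were 0.426 for Kcnmb2, a beta subunit gene, 0.352 for Kcnj16, 0.297 for Kcne4 and 0.28 for Kcnu1. In 4 of the 19 genes a RING1B peak lay elsewhere in the gene: Kcne1 (948 bp), Kcnj14 (493 bp), Kcnn4 (1118 bp) and Kcnu1 (1156 bp).

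Peaks that overlapped a Kcn gene but none of its promoters were counted apart. RING1B had such a peak at 22 members (23.4%), SUZ12 at 12 (12.8%) and PCGF2 at 7 (7.45%), against 12%, 4.94% and 2.23% of all protein-coding genes. Kcn genes were also longer, with a median of 32.7 kb against 17.7 kb, and the part of gene length in these shares was not tested. At 6 of the 22 genes such a RING1B peak ran past an end of the gene.

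At 6 genes the widest RING1B peak away from promoters was wider than the widest at a promoter. That of Kcnj4, an inward rectifier, spanned 9894 bp against 6087 bp, but 2769 bp of it lay within the gene. That of Kcnk4, a mechanosensitive leak channel, spanned 9305 bp against 5055 bp, with 4593 bp within the gene. In Kcnk3, an acid-sensitive leak channel, 7580 bp of a peak of 7704 bp lay within the gene, against 2048 bp at the promoter. The others lay wholly within their genes: Kcnh4 with 5262 bp against 3443 bp, Kcnh6 with 2661 bp against 341 bp and Kcnn3 with 1491 bp against 937 bp. SUZ12 and PCGF2 peaks away from promoters also overlapped Kcnj4, Kcnk4 and Kcnk3. Their lengths within the gene were 4405 and 1559 bp in Kcnj4, 3861 and 2057 bp in Kcnk4 and 4606 and 2008 bp in Kcnk3.

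Among members with RING1B alone, Kcnip2 had 3 RING1B peaks at its promoters, the widest of 1632 bp. Kcnk5 had a peak of 1623 bp, Kcnv2, for a silent subunit of photoreceptors, 1184 bp, and Kcnt2 1167 bp. These lay between percentiles 37.7 and 54.3 of the RING1B list, near its middle.

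The same shares were counted for other voltage-gated cation channel genes. Of 26 Cacn genes, for calcium channel subunits, 20 had RING1B, 20 SUZ12 and 17 PCGF2 (76.9%, 76.9% and 65.4%). Of 14 Scn genes, for sodium channel subunits, 7 had RING1B, 4 SUZ12 and 3 PCGF2 (50.0%, 28.6% and 21.4%). Kcn shares were close to those of Cacn genes and above those of Scn genes, without a test of either difference. CpG-rich promoters made up 61.5% of Cacn, 42.6% of Kcn and 14.3% of Scn genes, and the part of CpG content in these shares was not tested.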

How the data were processed

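Calibrated ChIP-seq of untreated ESCs was used, as 3 deposited peak lists. Per the study's methods, the authors mapped read pairs by Bowtie 2 to a mouse mm10 and human hg19 reference (hg19 for the HEK293T spike-in). Duplicate and multiply mapped reads were discarded, the former by Sambamba, before MACS2 called broad peaks over Input. For RING1B and SUZ12 they merged replicates within each line and kept peaks found in both PRC1CPM and PRC1CKO. RING1B peaks without significant loss after tamoxifen (800 nM, 72 h) in PRC1CKO were removed, a filter resting on samples not analysed here. For PCGF2, peaks found in every PRC1CPM replicate were kept. Blacklisted regions were dropped. The deposited values are starts and ends in base pairs, with no score, so depth is not given by the lists. These rules can change peak number and width, so widths were compared within a list except where stated. The lists hold no expression values, so the identity of the cells was not checked.

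Peaks were assigned to RefSeq genes (GRCm38.p6, the assembly of mm10), with 0 peaks past a chromosome end. A gene took the widest peak at any promoter. Coordinates count from base 1. The CpG ratio was the CpG count times length over the product of C and G counts. Families followed gene symbols. Values were named for the 6 widest RING1B peaks with all 3, the narrowest such, the 4 widest in each other class with a peak, the 4 highest CpG ratios without one, and 6 genes whose promoters at least 5 kb apart differed in class. Some members are not reported here by name. Other genes given values were chosen after their values were seen. The members and lists were chosen with earlier results of these data known. A total of 98 alternatives were computed. The code was tested on simulated data. Python 3.11.15, NumPy 2.4.6, pandas 2.3.3, pysam 0.24.0, SciPy 1.17.1 and matplotlib 3.10.9 were used. A promoter sequence was held for 69 of the 94 members.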

Additional observations from a re-analysis of the deposited data

How the results depend on the processing

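Of 98 alternatives to 13 values, 76 gave a value close to the one reported (counts within 1.5 times, other values within a 95% interval of the reported one) and 22 did not. Only the CpG difference has a direction, and it stayed above 0 under each of its alternatives. Counts of Kcn genes with RING1B, with SUZ12, with PCGF2 and with all 3 peaks were close under all of their alternatives, with ranges of 65 to 76, 61 to 70, 50 to 55 and 50 to 55. The lowest RING1B and SUZ12 counts, 65 and 61, were those over the 77 pore-forming genes alone. With all 94 genes kept, the lowest were 72 and 65. Requiring the TSS base inside the peak raised the genes with RING1B alone from 5 to 8, and leaving out auxiliary genes lowered those with no peak from 19 to 12, since 7 of them are auxiliary. With 1 TSS a gene, RING1B was lost at Kcnab1, Kcnip1 and Kcnj12. The CpG difference was 0.159 in a window of plus or minus 2500 bp and 9.49 percentage points when GC content was used. Among all protein-coding genes, the RING1B share became 57.4% within 1000 bp, 60.2% within 5000 bp, 53.9% with the TSS inside the peak, 55.7% with 500 bp shared, 45.6% with peaks of at least 1 kb, 57.2% with 1 TSS and 59.5% with predicted transcripts. The SUZ12 share became 26.5%, 28.3%, 20.8%, 26.2%, 23.5%, 26.3% and 28% in the same order. The PCGF2 share became 15% within 5000 bp, 13% with the TSS inside the peak, and 13.9% both with peaks of at least 1 kb and with 1 TSS. All of these shares lay below those of the Kcn genes under the same setting. No paired analysis was possible because every list combines its samples. Depth behind a promoter without a peak is unknown.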
